A study of Mus musculus with 12 samples.

Results

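The annexin family was followed through 10 listed genes, Anxa1 to Anxa7 without a gap, Anxa9, Anxa10 and Anxa11, out of 18820 genes measured. They were picked by gene symbol from the platform annotation, with earlier results of these arrays known, and where a gene had several probe sets the brightest, by its mean of 12 arrays, stood for it. The probe sets were chosen by that mean and the symbols alone, without the contrasts between groups. Earlier results may have entered the choice of the family, so its counts beside the shares of all genes are descriptions. All 10 were found on the array, and each was kept without any filter on low values. Expression was profiled on 12 arrays in 4 groups of 3: liver and primary hepatocytes of Jnk1f/fJnk2+/+ mice (WT) and of JNKΔhepa double-knockout mice. WT animals carried the floxed Jnk1 allele and intact Jnk2. In JNKΔhepa animals Cre under the albumin promoter and alpha-fetoprotein enhancer removed Jnk1 from hepatocytes, while Jnk2 was missing from every cell of the animal. All mice were males of the C57BL/6 background aged 7 to 8 weeks, and each of the 6 mice contributed a sample of either kind.

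Annexins are cytosolic proteins that attach to negatively charged membrane phospholipids when calcium rises. Through that binding they organise membrane domains, take part in exocytosis, endocytosis and the resealing of torn plasma membrane, and some act outside the cell. In liver, Anxa5 and Anxa6 are the annexins best known from hepatocytes, whereas Anxa1, Anxa2 and Anxa3 are known mostly from non-parenchymal, biliary, inflammatory or injured cells. JNK1 and JNK2, encoded by Mapk8 and Mapk9, phosphorylate Jun, a subunit of the transcription factor AP-1.

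Mapk9 read 8.59 to 8.69 in WT liver, 2.33 to 3.02 in JNKΔhepa liver, 7.74 to 8.10 in WT hepatocytes and 2.29 to 2.62 in JNKΔhepa hepatocytes (deposited log2 values, as are all levels here), which matches the labels. Mapk8 read 6.37 to 6.40, 5.93 to 6.07, 5.51 to 5.66 and 4.95 to 5.01 in the same order. It was lower in JNKΔhepa by −0.40 in liver (SE 0.0762, limma adjusted p = 0.027) and −0.61 in hepatocytes (SE 0.0762, limma adjusted p = 0.00183). Its probe set may lie outside the deleted part, so these values are not taken as a check of the deletion. All 10 hepatocyte markers checked, Alb and Ttr among them, read above the median of all probe sets on every array of every group.

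Because JNK acts on AP-1, the 250 bases before the start sites of the annexin genes were read for the AP-1 element TGACTCA, which reads TGAGTCA on the other strand, and for the related cyclic AMP element TGACGTCA, which reads the same on both strands and does not hold the first. The sequences are RefSeq's, on GRCm38.p6, and 8 of the 10 genes had an entry, with 11 start sites in all. Anxa3 and Anxa6 had none. The AP-1 element was found before Anxa2 and before Anxa10, and the cyclic AMP element before 0 of the 11 starts. Over all 32851 RefSeq windows of this length, 4.46% held the AP-1 element and 1.55% the cyclic AMP element. The windows of both genes with the element are shown, 5′ to 3′ on the strand of the gene with the matched letters in capitals, beside that of Anxa5, which held neither element and is the annexin whose RNA differed most between genotypes in hepatocytes.
Anxa2, chr9:69453433-69453682, plus strand: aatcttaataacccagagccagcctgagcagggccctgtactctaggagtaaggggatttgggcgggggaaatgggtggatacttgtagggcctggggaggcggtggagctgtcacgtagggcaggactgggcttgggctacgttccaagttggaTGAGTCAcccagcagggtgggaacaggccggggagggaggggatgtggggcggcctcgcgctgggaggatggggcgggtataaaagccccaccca
Anxa10, chr8:62123194-62123443, minus strand: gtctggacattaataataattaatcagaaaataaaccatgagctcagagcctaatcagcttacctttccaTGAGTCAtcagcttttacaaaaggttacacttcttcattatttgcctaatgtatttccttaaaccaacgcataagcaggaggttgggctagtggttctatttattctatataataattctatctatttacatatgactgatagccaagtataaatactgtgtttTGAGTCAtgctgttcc
Anxa5, chr3:36475888-36476137, minus strand: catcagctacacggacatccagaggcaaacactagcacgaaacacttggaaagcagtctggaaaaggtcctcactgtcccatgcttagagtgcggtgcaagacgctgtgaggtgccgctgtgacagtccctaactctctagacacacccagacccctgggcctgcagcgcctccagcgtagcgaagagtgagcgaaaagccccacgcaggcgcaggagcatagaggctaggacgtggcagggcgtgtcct
The match begins 95 bases before the start of Anxa2, and the matches of Anxa10 begin 180 and 16 bases before its start. A match of letters does not show that a factor binds there.

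The genotype comparison asked which annexin transcripts differ when hepatocytes lack JNK1 and the animal lacks JNK2. Anxa5 and Anxa6 were lower in JNKΔhepa hepatocytes, by nearly the same factor, and Anxa6 was also lower in JNKΔhepa liver. Of the 10 annexins, 2 passed in hepatocytes, both lower, and 1 passed in liver, also lower (limma, Benjamini-Hochberg adjusted p under 0.05 over all genes). The background for this is 0.84% of all genes past the threshold in hepatocytes (0.473% lower) and 0.925% in liver (0.558% higher, 0.367% lower). The median log2 change of the 10 annexins was −0.138 in hepatocytes and −0.0842 in liver, against −0.0018 and 0.0155 over all genes, and 7 of the 10 had a value below 0 in each tissue.

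**Figure D1:**
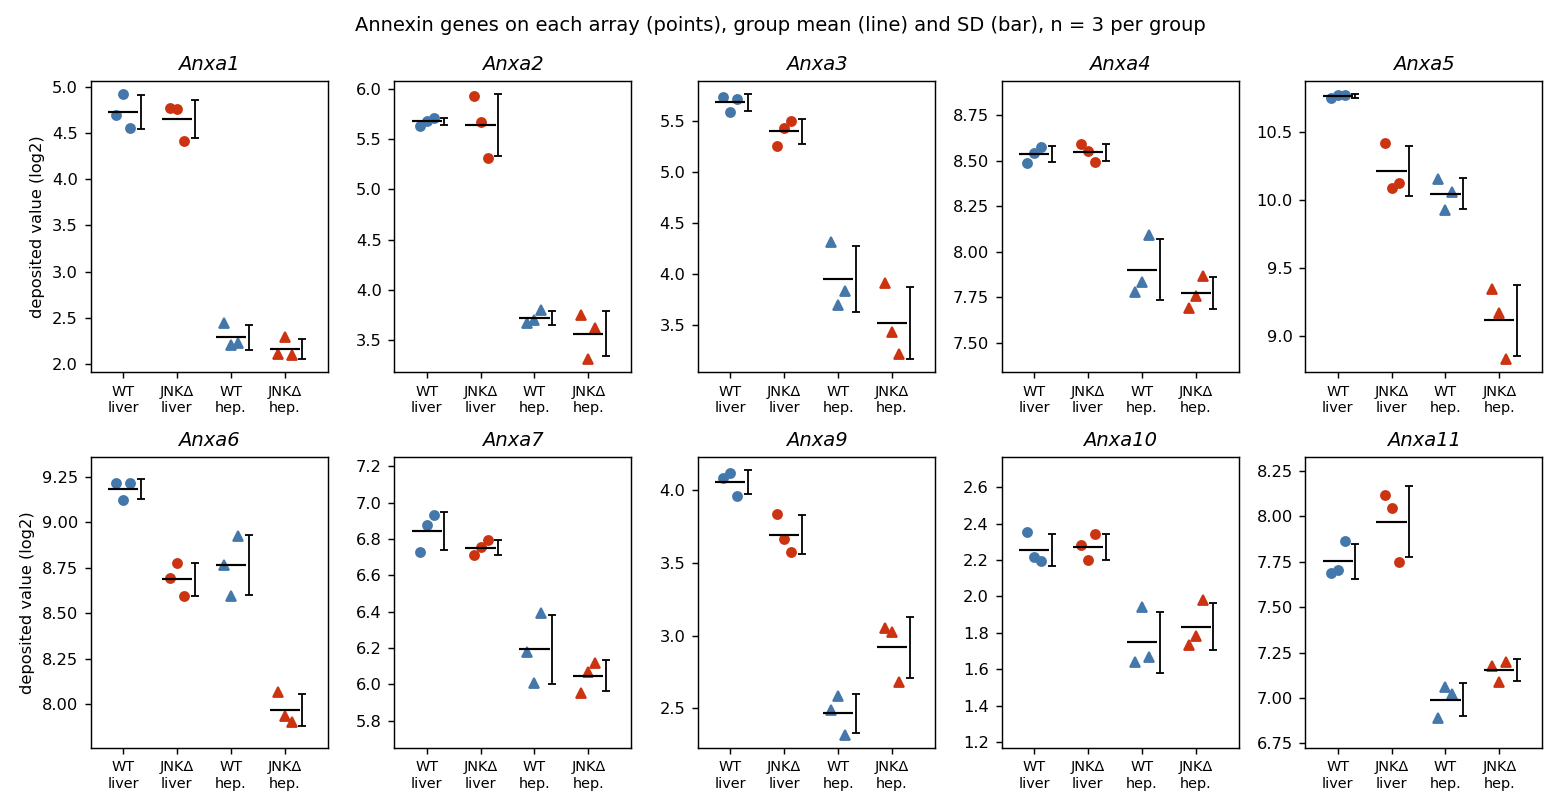
Deposited log2 values of the 10 annexin genes on each array, by group (hep., hepatocytes; JNKΔ, JNKΔhepa), with the group mean as a line and the SD as a bar at its right, n = 3 per group; each panel has its own scale. In Anxa5 and Anxa6 the JNKΔhepa arrays lie below all WT arrays of the same tissue, and in Anxa9 they lie below in liver and above in hepatocytes.

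Anxa5 encodes annexin A5, the phosphatidylserine-binding protein whose labelled form is used to stain dying cells. WT hepatocytes of replicates 1 to 3 had levels of 10.15, 9.92 and 10.06, compared with 9.34, 9.17 and 8.83 for JNKΔhepa hepatocytes. Every JNKΔhepa array thus lay below every WT array, and the third was the lowest. The log2 change was −0.93 (1.91-fold lower, SE 0.128, limma adjusted p = 0.00399). In liver its levels were 10.75, 10.77 and 10.77 (WT), compared with 10.42, 10.09 and 10.12 (JNKΔhepa). The WT livers were nearly identical, and the JNKΔhepa livers lay below them without overlap, the first being the nearest. The liver change of −0.55 (1.47-fold, SE 0.128, limma adjusted p = 0.0688) missed the threshold. It passed with an intensity trend in the variance (0.0387), with array weights (0.0413), without JNKΔhepa hepatocytes replicate 1 (0.041) and without JNKΔhepa hepatocytes replicate 3 (0.0364), the range over all alternatives being 0.0364 to 0.217.

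Anxa6 encodes annexin A6, the family member with a duplicated core, which works on endosomes and in cholesterol transport. Levels of 8.77, 8.60 and 8.93 in WT hepatocytes compared with 8.07, 7.94 and 7.90 in JNKΔhepa hepatocytes, again without overlap. The log2 change was −0.79 (1.73-fold lower, SE 0.0962, limma adjusted p = 0.0014). WT livers stood at 9.22, 9.12 and 9.22, and JNKΔhepa livers at 8.69, 8.77 and 8.59. These groups were also apart, by more than the spread inside either of them, with a change of −0.50 (1.41-fold lower, SE 0.0962, limma adjusted p = 0.0292). The liver call was lost without any one of the 6 liver arrays: the limma adjusted p was 0.121, 0.0682 and 0.0684 without WT liver replicates 1, 2 and 3, and 0.105, 0.0565 and 0.117 without JNKΔhepa liver replicates 1, 2 and 3. The hepatocyte calls of Anxa5 and Anxa6 were kept without each single array, with a limma adjusted p of at most 0.028 and 0.0127.

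A second probe set carries the symbol Anxa6, and it read below the median of all probe sets on every array. Its mean over the arrays was 2.75, against 8.65 for the one used, and its genotype differences were −0.16 in liver (SE 0.11) and −0.13 in hepatocytes (SE 0.11), neither past the threshold (limma adjusted p = 0.622 and 0.71 over all probe sets with 1 symbol). When both probe sets of Anxa6 were averaged, the change was −0.46 in hepatocytes (limma adjusted p = 0.0138) and −0.33 in liver (0.0707), which ended the liver call. That average gives the low-reading probe set the same weight as the other.

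**Figure D2:**
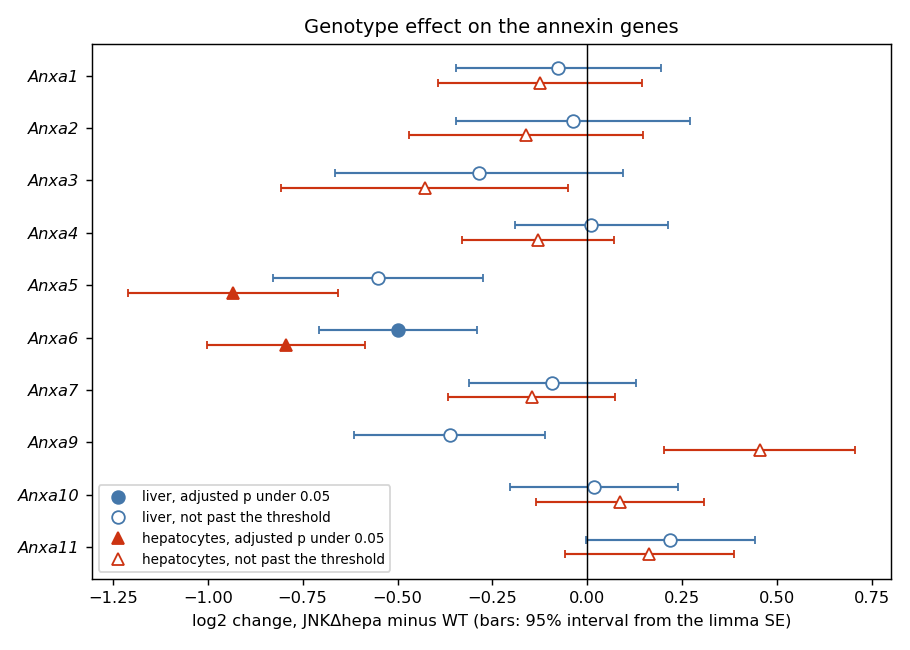
Log2 change between JNKΔhepa and WT for the 10 annexins in liver (circles) and hepatocytes (triangles), with 95% intervals from the limma standard error; filled symbols passed an adjusted p under 0.05. Anxa5 and Anxa6 lie farthest to the left, at −0.93 and −0.79 in hepatocytes, and Anxa9 is the one gene with intervals on opposite sides of 0.

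Both decreases were numerically larger in isolated hepatocytes than in whole liver, but the difference between the tissues was not past the threshold. It was −0.38 for Anxa5 (SE 0.181, limma adjusted p = 0.699, unadjusted 0.0557) and −0.30 for Anxa6 (SE 0.136, limma adjusted p = 0.69, unadjusted 0.0496). In this interaction 0 of 10 annexins passed, against 0.0106% of all genes, and 2 of the 10 had an unadjusted limma p under 0.05, namely Anxa6 and Anxa9, against 7.22% of all genes.

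Markers of other liver cells differed between the hepatocyte preparations in the same direction as Anxa5 and Anxa6. Of 10 markers of Kupffer cells and macrophages, all 10 had values below 0 in JNKΔhepa hepatocytes (median log2 change −0.749), and so had all 10 markers of sinusoidal endothelium (median −0.552). None of these 20 passed limma over all genes (0 of 10 in each list), while 8 and 9 of them had an unadjusted p under 0.05, against 12.6% of all genes in hepatocytes and 12.5% in liver. The log2 of the summed macrophage markers ran from 8.98 to 9.72 in WT and from 8.44 to 9.04 in JNKΔhepa hepatocytes, and that of the endothelial markers from 10.4 to 10.8 and from 9.95 to 10.5. Among the 10 macrophage markers Marco alone read below the array median on all 3 JNKΔhepa hepatocyte arrays, and in the endothelial list none did. Stellate cell markers had a median of −0.166, with 9 of 10 below 0, and summed to 8.80 to 9.22 in WT and 8.25 to 8.77 in JNKΔhepa hepatocytes. Of the 10 stellate markers 0 passed limma there, and 3 had an unadjusted p under 0.05, all lower. Named after their values were seen, these were Dcn (−0.77), Reln (−0.60) and Lrat (−0.49). Des, Lum and Acta2 of that list were below the array median on all hepatocyte arrays. So were all measured markers of lymphocytes (7), of neutrophils and monocytes (7) and of mesothelium (4), and of 5 measured cholangiocyte markers 4 were, Krt7, Krt19, Epcam and Cftr. In these last 4 lists 0 genes passed limma in either tissue, with 2, 1, 0 and 1 of them at an unadjusted p under 0.05 in liver and 0, 0, 0 and 1 in hepatocytes.

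In whole liver the medians of the same lists were −0.0974 for macrophages, 0.113 for endothelium and −0.112 for stellate cells, where Anxa5 and Anxa6 had values of −0.55 and −0.50. An unadjusted limma p under 0.05 was seen for 1 macrophage marker, Cd163 (−0.82, adjusted p = 0.0799), 2 stellate markers and 0 endothelial markers. The stellate markers were Lrat (−0.61, adjusted p = 0.0767) and Reln (−0.37, adjusted p = 0.391). Of all genes in liver 12.5% had such a p, and none of these markers passed the threshold. These 3 were named after their values were seen. The summed liver levels were 11.1 to 11.6 in WT and 11.1 to 11.3 in JNKΔhepa for macrophages, 11.9 to 12.1 and 12.1 to 12.2 for endothelium, and 11.4 to 11.5 and 11.2 to 11.4 for stellate cells. Hepatocyte markers had medians of −0.0206 in liver and 0.0317 in hepatocytes. The part that these cells have in the annexin values was not tested, and in such samples fewer cells of a type and less RNA per cell cannot be told apart.

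**Figure D3:**
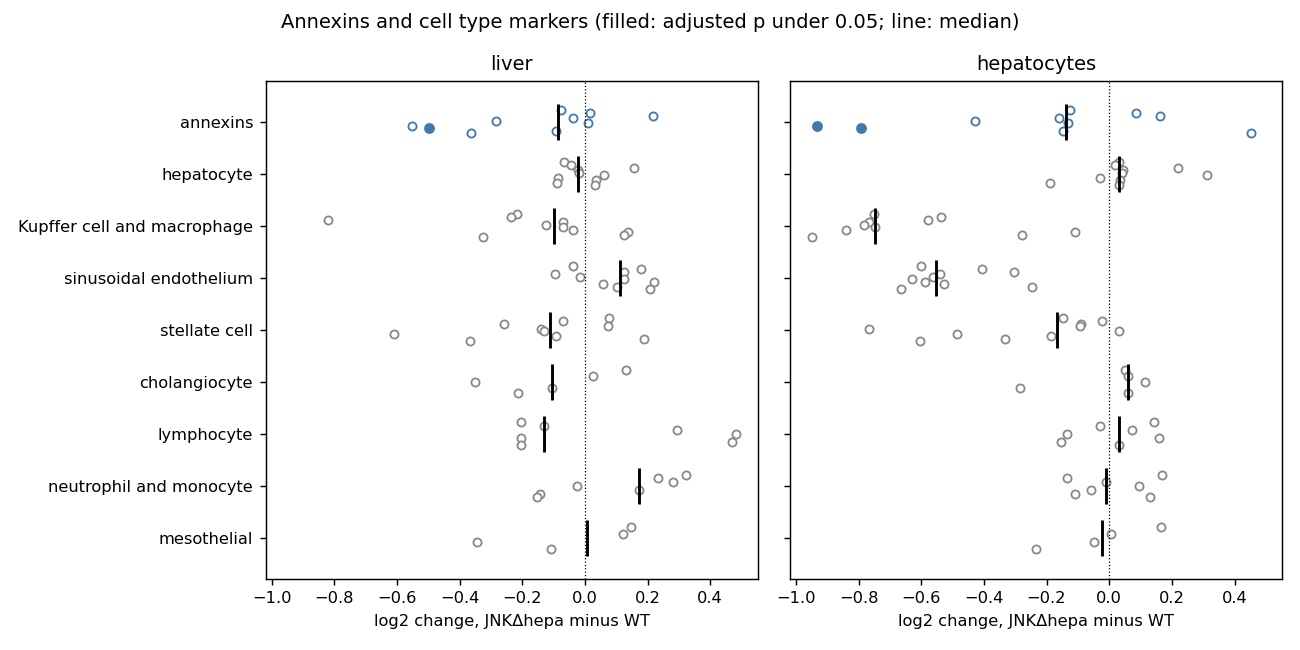
Log2 change between JNKΔhepa and WT for the 10 annexins and for the measured markers of 8 cell types, in liver (left) and hepatocytes (right); each circle is a gene, filled where limma's adjusted p was under 0.05, and each line is the list's median. In hepatocytes all 10 macrophage and all 10 endothelial markers lie below 0 (medians −0.749 and −0.552), whereas in liver their medians are −0.0974 and 0.113.

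The remaining annexins fall into 3 groups by what is known of them. Anxa1, Anxa2 and Anxa3 are inducible annexins: annexin A1 is a glucocorticoid-induced inhibitor of inflammation, annexin A2 pairs with S100A10 to bind plasminogen at the cell surface, and annexin A3 is abundant in neutrophils. Anxa1 changed by −0.0763 in liver (95% interval −0.35 to 0.19) and −0.12 in hepatocytes (−0.39 to 0.14), where all 6 arrays were dim, meaning below the median of all probe sets on that array. Anxa2 changed by −0.0381 in liver (95% interval −0.35 to 0.27) and −0.16 in hepatocytes (−0.47 to 0.15). In JNKΔhepa liver Anxa2 was more scattered than in WT liver, with 5.93, 5.68 and 5.31 in replicates 1, 2 and 3 against 5.63, 5.68 and 5.71.

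Anxa3 had levels of 5.74, 5.59 and 5.72 in WT livers, compared with 5.26, 5.44 and 5.50 in JNKΔhepa livers. The liver arrays did not overlap. The change of −0.28 (SE 0.175, limma adjusted p = 0.564) was small beside the spread that the fit estimated from all 4 groups. That spread came more from hepatocytes (SD 0.324 in WT and 0.352 in JNKΔhepa) than from liver (SD 0.080 and 0.126). WT hepatocytes stood at 4.32, 3.70 and 3.84, compared with 3.91, 3.44 and 3.22 for JNKΔhepa hepatocytes. WT replicate 1 stood above the others there, the groups overlapped, and the change of −0.43 (SE 0.175) had a limma adjusted p of 0.33.

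Anxa4, Anxa7 and Anxa11 are broadly expressed annexins of epithelia and of vesicle traffic. Anxa4, which encodes an annexin of secretory epithelia, was the closest to no change in liver, at 0.011 (95% interval −0.19 to 0.21), and had −0.13 in hepatocytes (−0.33 to 0.0706). Its 6 liver values lay between 8.49 and 8.59. Anxa7, which encodes the granule-fusing protein synexin, had −0.0921 in liver (95% interval −0.31 to 0.13) and −0.15 in hepatocytes (−0.37 to 0.0738). These intervals leave out changes of Anxa4 or Anxa7 as large as the −0.50 of Anxa6 in liver.

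Anxa11 encodes annexin A11, which tethers RNA granules to lysosomes and binds S100A6. It was the annexin with the highest value in JNKΔhepa liver relative to WT, with WT livers at 7.69, 7.70 and 7.86 and JNKΔhepa livers at 8.12, 8.04 and 7.75. JNKΔhepa replicate 3 fell inside the WT range, and the change was 0.22 (SE 0.103, limma adjusted p = 0.409). WT hepatocytes had 6.89, 7.06 and 7.02, compared with 7.18, 7.09 and 7.20 in JNKΔhepa hepatocytes, apart but close, with a change of 0.16 (SE 0.103, limma adjusted p = 0.582). A second, dimmer probe set of Anxa11 (mean 3.12) had −0.11 in liver and 0.11 in hepatocytes (SE 0.155).

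Anxa9 and Anxa10 are the atypical annexins, whose calcium-binding sites are degenerate. Anxa10, known from stomach, was dim on all 12 arrays, at 1.64 to 2.36, and had changes of 0.0169 and 0.0852 whose sizes are not exact. Anxa9 was near the array median in liver, with WT at 4.09, 4.12 and 3.96, compared with 3.84, 3.67 and 3.58 for JNKΔhepa, where all 3 JNKΔhepa arrays and 2 WT arrays were dim. Hepatocytes, dim throughout, had 2.49, 2.59 and 2.32 (WT), compared with 3.05, 3.03 and 2.68 (JNKΔhepa). The JNKΔhepa arrays were thus all lower in liver and all higher in hepatocytes. The log2 change was −0.36 in liver (SE 0.116, limma adjusted p = 0.194) and 0.45 in hepatocytes (SE 0.116, adjusted p = 0.101). Neither these nor their difference of 0.82 (SE 0.164, limma adjusted p = 0.341, unadjusted 0.000271) passed over all genes.

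Arrays of the genotypes did not overlap for 4 of 10 annexins in liver, all lower (Anxa3, Anxa5, Anxa6 and Anxa9), against 7.57% of all genes lower, 12.9% higher and 20.4% in either direction. In hepatocytes they did not overlap for 2 lower (Anxa5 and Anxa6) and 2 higher (Anxa9 and Anxa11), against 7.32% and 7.36% of all genes and 14.7% in either direction.

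Anxa8 and Anxa13, family members outside the list of 10, were measured as well. Anxa13, which encodes a myristoylated annexin of epithelial cells, had levels of 4.10, 4.26 and 3.84 in WT livers, compared with 3.43, 3.31 and 3.54 in JNKΔhepa livers. It fell in liver by 0.64 on the log2 scale (1.56-fold, SE 0.114, limma adjusted p = 0.0188), and since all 3 JNKΔhepa arrays were dim and 1 WT array was too, the size is not exact. The call was lost without WT liver replicates 1 and 2 (0.0864 and 0.0837) and JNKΔhepa liver replicates 1 and 2 (0.0728 and 0.0872), and in a fit of the liver arrays alone (0.0742). In hepatocytes Anxa13 was dim on every array, at 1.68 to 1.99. Anxa8 was dim on all 12 arrays, with changes of −0.0882 and −0.0149.

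Anxa6 and Mapk9 lie on the same chromosome, 11 in mouse, and Anxa5 lies on chromosome 3. In the RefSeq order (GRCm38.p6) 72 measured genes stand between Mapk9 and Anxa6. Of these, 1 passed in liver (lower) and 2 in hepatocytes (1 lower, 1 higher), 2 different genes in all. Among the 50 measured genes nearest to Anxa6, 25 on each side, 5 passed in liver (2 higher, 3 lower) and 4 in hepatocytes (2 higher, 2 lower), or 6 genes in all, where 0.925% and 0.84% of all genes passed. Among the 50 nearest to Mapk9 itself, 0 passed limma in either tissue. Many of these 50 are olfactory receptor genes (Olfr symbols), and at shares of 0.925% and 0.84% a count of 0 among 50 is common. Around Anxa5 the counts were 0 in liver and 2 in hepatocytes (1 higher, 1 lower), and around each of the other 8 annexins 0 or 1 passed in liver and 0 to 2 in hepatocytes. The pairing of Anxa6 with Anxa5 was made with their values known, and these counts are descriptions.

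Tnip1, which encodes an inhibitor of NF-kB signalling, is the measured gene next to Anxa6 on the side of Mapk9. It changed by 0.54 in hepatocytes (SE 0.103, limma adjusted p = 0.0254) and 0.18 in liver (adjusted p = 0.53). Ccdc69, the measured gene next to Anxa6 on the other side, was named after its values were seen and had −0.10 in liver (SE 0.101, limma adjusted p = 0.765) and −0.0014 in hepatocytes (SE 0.101, adjusted p = 0.998). The other called neighbours of Anxa6, printed with their values known, went both ways. Lyrm7 (−0.69 in liver, −0.80 in hepatocytes) and Atox1 (−0.84 and −0.85) passed limma as lower in both tissues. Gm12250 (1.21 and 1.62) passed as higher in both. In liver alone Sparc passed as higher (0.67) and Mrpl22 as lower (−0.56). The hepatocyte call of Tnip1 was lost without WT hepatocytes replicate 3 (0.0824) and without JNKΔhepa hepatocytes replicates 1, 2 and 3 (0.0562, 0.0513 and 0.0902), in a fit of the hepatocyte arrays alone (0.168) and after joint quantile normalisation (0.0545).

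**Figure D4:**
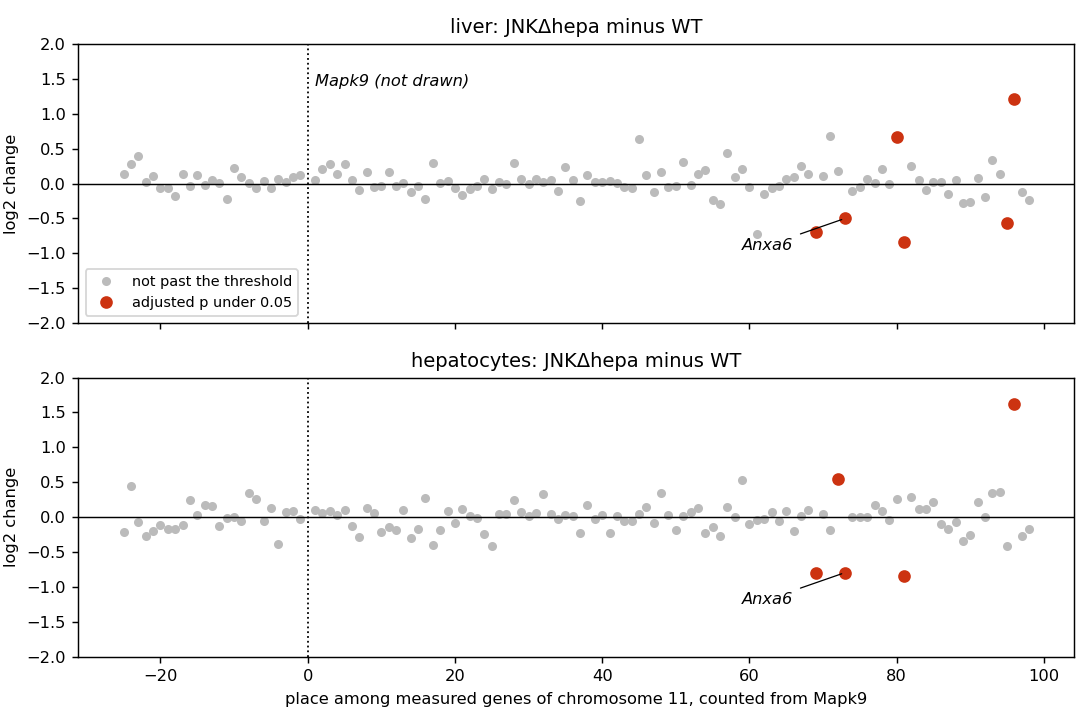
Log2 change between JNKΔhepa and WT in liver (top) and hepatocytes (bottom) for the measured genes of chromosome 11 from 25 before Mapk9 to 25 after Anxa6, by their place in the RefSeq order; red points passed limma's adjusted p under 0.05, and Mapk9 itself lies off the scale. No gene among the 50 nearest to Mapk9, many of them olfactory receptor genes, is red. Anxa6 lies among 6 red neighbours that go both ways.

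The genes whose values followed Anxa5 and Anxa6 most closely were found by Pearson's r over the 12 arrays after each tissue's mean was subtracted, which leaves mainly the genotype difference and gives a description with no test. For Anxa6 they were Tifa (r = 0.99), an adaptor of NF-kB signalling on chromosome 3, Zfp39 (r = 0.976), a zinc finger gene on chromosome 11, and Camk2d (r = 0.972), a calcium/calmodulin-dependent kinase gene on chromosome 3. For Anxa5 they were Fmnl2 (r = 0.965), a formin gene on chromosome 2, the adhesion molecule gene Mcam (r = 0.961) on chromosome 9, and Lyrm7 (r = 0.958), a mitochondrial assembly factor gene on chromosome 11 that is among the 50 neighbours of Anxa6. Their log2 changes in hepatocytes ran from −0.64 for Fmnl2 to −1.69 for Tifa. Anxa5 and Anxa6 followed each other at r = 0.945, and 6 genes were more like Anxa5 than Anxa6 was.

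Partners and pathways of the annexins were read from lists, whose genes were chosen with earlier results of these arrays known. Over all genes 0.925% passed in liver and 0.84% in hepatocytes, and 12.5% and 12.6% had an unadjusted p under 0.05. In limma over all genes, 0 of 6 annexin-binding S100 genes passed in either tissue (0 with an unadjusted p under 0.05 in liver and 1 in hepatocytes), with medians of −0.0226 in liver and −0.0118 in hepatocytes. Of 6 measured genes of plasminogen activation, the process that annexin A2 promotes, 0 passed in either tissue (2 and 0 unadjusted), and of 6 phospholipase A2 genes, whose products annexins can inhibit, 0 passed (1 and 1 unadjusted). Among 14 genes of membrane repair 0 passed (3 and 0 unadjusted, medians −0.0043 and −0.0631). The formyl peptide receptor genes, through which annexin A1 signals, had 0 of 3 members with a probe set of 1 symbol and were not analysed here.

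Of 11 measured genes for exposure and recognition of phosphatidylserine, the lipid that annexin A5 binds, 0 passed limma in either tissue (1 and 4 unadjusted, all lower). Their median was 0.0616 in liver and −0.245 in hepatocytes, and 2 of them, Stab2 and Timd4, are also in the endothelial and macrophage lists. Of 14 genes of cytoskeleton and hepatocyte dedifferentiation, 0 passed in liver (0 unadjusted) and 1 in hepatocytes (6 unadjusted, all lower), with medians of −0.0351 and −0.301. Of all genes 0.84% passed in hepatocytes, and 12.6% had an unadjusted p under 0.05 there. The gene of this list that passed was Lgals1, which encodes galectin-1 (log2 change −0.66, SE 0.125, limma adjusted p = 0.0258). Its call was lost without WT hepatocytes replicate 1 (0.118), without JNKΔhepa hepatocytes replicates 1, 2 and 3 (0.055, 0.087 and 0.089) and in a fit of the hepatocyte arrays alone (0.0638). Between hepatocytes and liver, on deposited values, the cytoskeleton and dedifferentiation list had a median difference of −1.63. That median was −0.585 over all genes, −0.191 for hepatocyte markers, −2.12 for macrophage markers and −1.89 for endothelial markers. The macrophage and endothelial markers moved with the phosphatidylserine and cytoskeleton lists in JNKΔhepa hepatocytes, as given above, and their part was not tested.

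The tissue comparison set isolated hepatocytes against whole liver over both genotypes. Anxa1, Anxa2 and Anxa3 were clearly lower in hepatocytes, Anxa9 was lower to a smaller extent, and for the other 6 the answer depended on how the arrays were scaled. Medians of the liver arrays ran from 4.09 to 4.12 and those of the hepatocyte arrays from 3.22 to 3.28, so the deposited values of the tissues do not share a distribution. On these values 92.3% of all genes passed (0.776% higher, 91.5% lower; median −0.585). All 10 annexins passed there, all lower, which is near that background. After quantile normalisation of the 12 arrays together 45.1% of genes passed (23.1% higher, 22% lower), with 5 of the 10 annexins, all lower. After subtraction of array medians 72.1% passed (59.6% higher, 12.5% lower), with 8 of the 10 annexins, 4 lower and 4 higher.

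Anxa1 had the largest difference of the 10 between the tissues. It stood between percentiles 53.3 and 58.9 of the probe sets on the 6 liver arrays and between 25 and 34 on the 6 hepatocyte arrays. Its log2 difference was −2.47 on deposited values (SE 0.088, limma adjusted p = 1.76e-10), −1.75 after joint quantile normalisation and −1.61 after median subtraction, sizes that are not exact because the hepatocyte arrays were dim. Anxa2 had −2.01 (SE 0.101, limma adjusted p = 2.04e-09), −1.19 and −1.16 on the same 3 scales, moving from percentiles 62.3 to 68.1 in liver to 50.9 to 55.9 in hepatocytes. Anxa3 had −1.80 (SE 0.124, limma adjusted p = 2.91e-08), −0.98 and −0.95. These 3 genes passed under each of the 3 scalings.

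Anxa9, dim in hepatocytes, had −1.18, −0.43 and −0.33 and also passed under all 3 scalings. Anxa5 had −0.91, −0.44 and −0.0534, and its call was lost after median subtraction (limma adjusted p = 0.617). For Anxa4, Anxa6, Anxa7 and Anxa10 the difference was −0.70, −0.57, −0.68 and −0.47 on deposited values and turned to 0.15, 0.29, 0.18 and 0.38 after median subtraction. There all 4 passed as higher (limma adjusted p = 0.0467, 0.00209, 0.0362 and 0.000463), so no direction is given. Anxa11, at −0.79, turned to 0.0675, and under joint quantile normalisation it had −0.15 (limma adjusted p = 0.122).

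On the deposited values the markers of other liver cells had median tissue differences of −2.12 for macrophages, −1.89 for sinusoidal endothelium and −2.66 for stellate cells, with 10 of 10 lower in each list, against −0.191 for hepatocyte markers and −0.585 for all genes. Anxa1, Anxa2 and Anxa3 had −2.47, −2.01 and −1.80 on that scale. The part of those cells in the tissue differences was not tested.

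**Figure D5:**
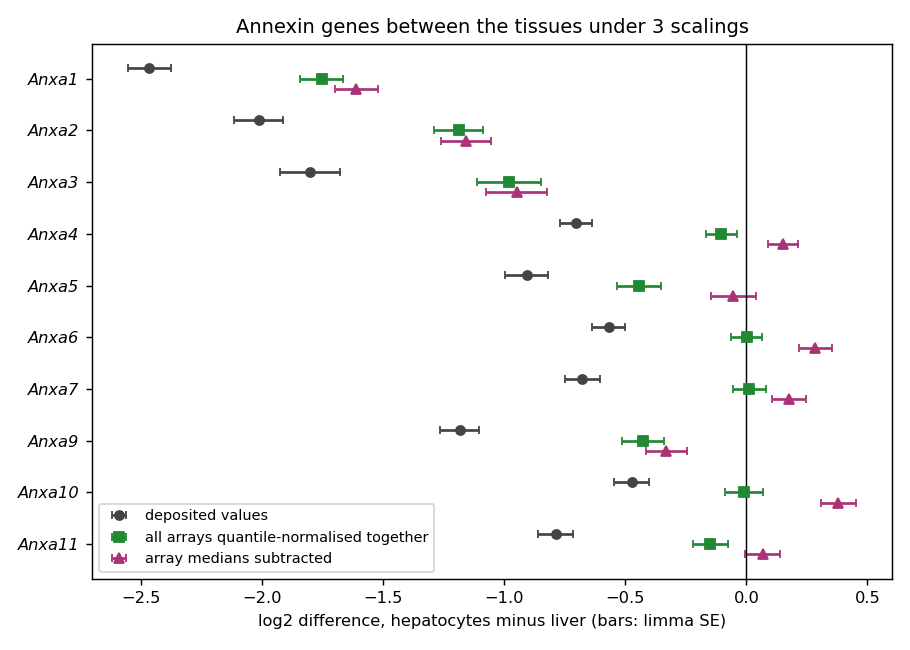
Log2 difference between hepatocytes and liver over both genotypes for the 10 annexins, with the limma SE as bars, on deposited values (circles), after joint quantile normalisation (squares) and after subtraction of array medians (triangles). Anxa1, Anxa2, Anxa3 and Anxa9 stay below 0 on all 3 scales, whereas Anxa4, Anxa6, Anxa7, Anxa10 and Anxa11 cross 0.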

How the data were processed

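RNA of 6 mice (liver and hepatocytes of each) was hybridised to 12 one-colour arrays, 1 per sample, per the labels. The deposited values are log2 intensities per probe set made by the authors with RMA (background correction, quantile normalisation and summary), per the submitters' processing notes and the range of the values. The sources used here do not give the log base, software, probe-set definition or genome build. The platform annotation gave 1 symbol to 21218 of 35556 probe sets, several to 1881 and none used here to 12457. Gene order and promoter sequences came from RefSeq tables (GRCm38.p6), where 18790 of the 18820 genes were found by Entrez number.

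Group means were fitted to all 12 arrays with limma 3.58.1 (R 4.3.3), so that 4 groups of 3 shared a spread (8 residual and 4.76 prior degrees of freedom). Tests were two-sided and adjusted over all genes by Benjamini-Hochberg, with 0.05 as threshold. The number of arrays limits the precision, and the script was tested on simulated data. The members and lists were chosen with earlier results of these data known. The rule for naming genes outside the family took list members past the threshold, a gene next to a called annexin that passed, and the 3 genes most like each called annexin. Outside this rule, single markers and list members, Ccdc69 and other called neighbours of Anxa6 were named as well. Several of them were named after their values were seen. Liver and hepatocyte samples with 1 replicate number and genotype came from the same mouse, per the labels. Their deviations from the group means correlated at −0.0133 to 0.0982 over genes, and mouse as a random block was an alternative. Other alternatives were the mean of a gene's probe sets, leaving out dim genes, joint quantile normalisation, median subtraction, an intensity trend, array weights, fits within a tissue and leaving out each array. Figures were drawn with matplotlib 3.10.9.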

Additional observations from a re-analysis of the deposited data

Results flagged for a closer look

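Anxa9 moved in opposite directions in the tissues. All 3 JNKΔhepa arrays lay below all 3 WT arrays in liver and above them in hepatocytes. The genotype effect was higher in hepatocytes than in liver by 0.82 (SE 0.164, limma adjusted p = 0.341, 0.122 to 0.561 over the alternatives), so the difference did not pass over all genes. All 6 hepatocyte readings were dim, and so were all 3 JNKΔhepa and 2 WT readings in liver.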

How the results depend on the processing

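In hepatocytes 2 annexins passed, and Anxa5 and Anxa6 kept their calls, under every alternative run. In liver the count of 1 became 0 with the mean of all probe sets, 2 with an intensity trend and 2 with array weights, and 0 to 2 with single arrays left out. In the tissue comparison 10 became 5 after joint quantile normalisation. With mouse as a random block (replicate block) the counts were 1 in liver, 2 in hepatocytes, 0 in the interaction and 10 between tissues, and the block changed no call of an annexin. Over all genes the liver count of 174 became 408 with array weights and 80 to 225 with single arrays left out. The hepatocyte count of 158 became 77 in a fit of that tissue and 61 to 387 with single arrays left out, the extremes being without JNKΔhepa hepatocytes replicate 3 and without WT hepatocytes replicate 2. The interaction count of 2 became 1 without dim genes, 4 with an intensity trend, 4 with array weights and 1 to 7 with single arrays left out. The tissue count of 17371 became 9604 without dim genes, where fewer genes were tested, and 8481 after joint quantile normalisation. Where not stated, the cause was not tested.

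Signs turned only for values that had not passed, apart from the tissue comparison. In liver, Anxa4 had −0.00498 after median subtraction and Anxa2 0.0124 with array weights. With single arrays left out, the liver values ran from −0.16 to 0.0432 for Anxa1, −0.18 to 0.12 for Anxa2, −0.0126 to 0.0363 for Anxa4 and −0.0171 to 0.0665 for Anxa10. In the interaction, Anxa11 had 0.0829 with the mean of all probe sets and Anxa1 0.0032 after joint quantile normalisation. With single arrays left out, the interaction ran from −0.17 to 0.0366 for Anxa1, −0.29 to 0.0213 for Anxa2, −0.34 to 0.0388 for Anxa3, −0.15 to 0.0444 for Anxa7, −0.0054 to 0.16 for Anxa10 and −0.17 to 0.0175 for Anxa11. Between tissues, joint quantile normalisation gave 0.00090 for Anxa6 and 0.0124 for Anxa7, and median subtraction 0.15 for Anxa4, 0.29 for Anxa6, 0.18 for Anxa7, 0.38 for Anxa10 and 0.0675 for Anxa11. The arrays give no detection call, so changes among dim readings have no exact size.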
